A study of Mus musculus with 10 samples.

Results

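The 34 genes described here carry fatty acids into the liver cell and its mitochondria, shorten them by beta-oxidation, pass on the electrons and make ketone bodies, together with the nuclear receptor and coactivator that govern them and 3 fasting targets. They were chosen by name: a row of the deposited table belonged to the set where its gene symbol equalled 1 of the 34 listed. All 34 were found among the 47702 rows of the table, and all 34 passed the filter on low values. The KO livers came from female mice lacking Etnppl throughout the body (knockout, KO), and the WT livers from wild-type females. Both genotypes were fed chow for 20 weeks, and every liver was snap frozen before poly-A RNA was taken. Each genotype had 5 libraries, numbered 1 to 5. Etnppl encodes ethanolamine-phosphate phospho-lyase, which breaks down phosphoethanolamine. The knockout was not limited to hepatocytes or to the liver. The labels do not say whether each sample was 1 animal, whether the mice were littermates, or whether they had been fasted.

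Fatty acids enter hepatocytes through membrane transporters, are bound by a carrier protein and are activated to acyl-CoA. The carnitine shuttle takes them across the inner mitochondrial membrane, where cycles of dehydrogenation, hydration, a second oxidation and thiolysis release acetyl-CoA, and flavoproteins pass the electrons to the respiratory chain. During fasting the liver turns acetyl-CoA into ketone bodies, and the fatty acid receptor PPARA induces many genes of these steps.

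Levels are FPKM, fragments scaled to transcript length and library size, as deposited. Differences are of log2(FPKM + 0.5), KO minus WT, from limma, which was fitted to the 12247 genes that averaged 0.5 FPKM or more, and a gene was called where its p, adjusted by Benjamini and Hochberg, was under 0.05. Etnppl, the targeted gene, had 26.4, 22.0, 18.9, 25.7 and 17.7 FPKM in KO 1 to 5 and 60.3, 69.7, 108, 47.2 and 43.3 FPKM in WT 1 to 5, a difference of -1.49 (SE 0.23, adjusted p = 0.005). The groups did not overlap, and the transcript was still present in KO livers. Read totals were not analysed here. Depth relative to the average library was estimated from steps in the values of 54 genes, picked for their fit to whole steps. It was 0.901 to 1.07 in KO and 0.998 to 1.11 in WT libraries. The means were 0.953 in KO and 1.05 in WT (exact permutation test, two-sided, p = 0.0476, n = 5 each). The estimate was not checked against read totals, and this p rests on it. Hepatocyte markers summed to between 62477 and 68589 FPKM in KO and between 58597 and 63421 FPKM in WT livers. Most of each sum was Alb, which averaged 43771 FPKM in KO and 41138 FPKM in WT livers. Of the 6 hepatocyte markers 1 was called higher and 5 were not called, with 4 differences above and 2 below 0. Skeletal muscle markers summed to at most 0.57 FPKM in KO and 2.08 FPKM in WT livers. In the sources used here neither the strand setting nor the annotation release was given, so genes that overlap can share reads.

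Of the 34 genes, 4 changed in KO livers. Cd36 and Slc27a1, which move fatty acids across membranes, were higher, and Acadm and Acat1, a dehydrogenase and a thiolase of the mitochondrial matrix, were lower. The other 30 did not pass the threshold. Over all genes tested, 8.54% were called, 3.98% as higher and 4.56% as lower in KO, and 11.8% of the 34 were called. The 34 genes and the lists below were chosen with earlier results of these data known. All genes tested were not matched to them for level. The shares called, here and below, are therefore descriptions and no test of any list. Of all calls, 46.7% were higher in KO, which became 52.3% with median-of-ratios scaling, 52% with upper-quartile scaling and 56.1% with quantile normalization. The 34 differences had a median of -0.02 and ran from -0.63 to 0.80, with 15 above and 19 below 0, of which Acsl1, Acadvl, Hadha, Hadh, Etfb and Etfdh turned to above 0 under quantile normalization. The median over all genes tested was -0.02. At an unadjusted p under 0.05 stood 6 of the 34, the called genes with Acaa2 and Acadsb.

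**Figure D1:**
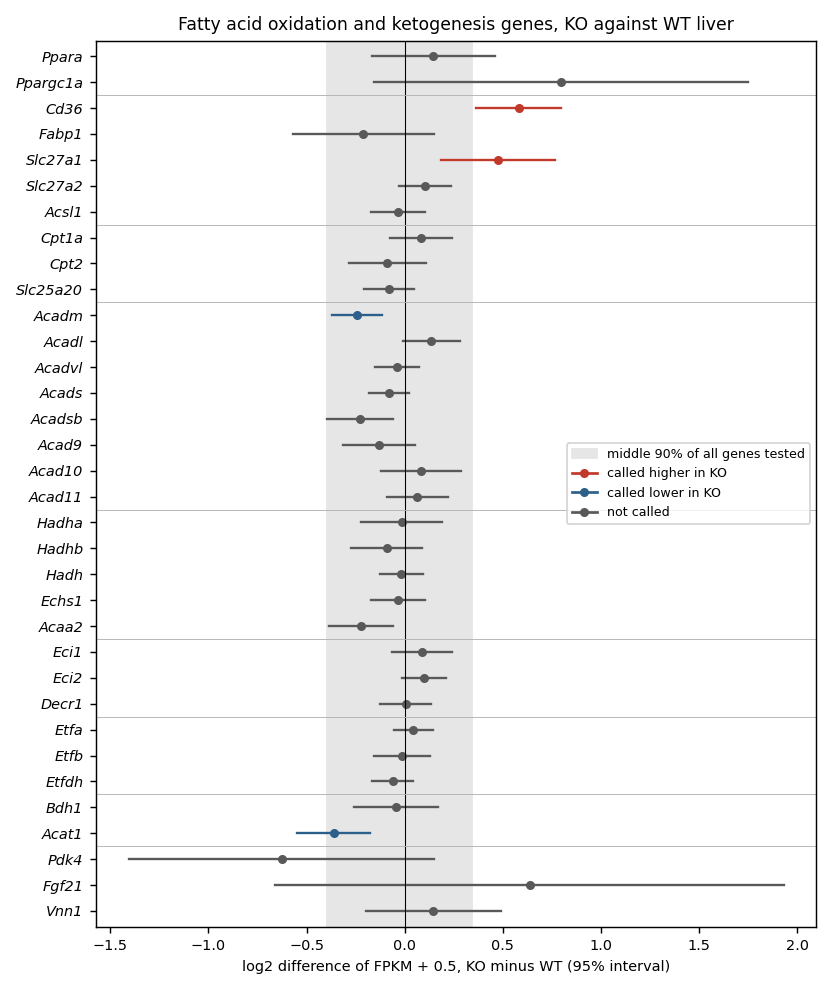
The log2 difference of FPKM + 0.5 (KO minus WT, horizontal axis) is drawn for each of the 34 genes with its 95% interval from limma, with the genes in the order of their roles from the regulators at the top to the fasting targets at the bottom. The shaded band holds the middle 90% of all genes tested, from -0.40 to 0.34; Cd36 and Slc27a1 lie to its right, Acadm and Acat1 lie inside it, and Ppargc1a, Pdk4 and Fgf21 have the widest intervals.

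The regulators did not pass the threshold. Ppara, the nuclear receptor that fatty acids activate, averaged 71.4 ± 11.5 FPKM in KO and 64.7 ± 12.2 FPKM in WT livers (SD, n = 5 each), a difference of 0.14 (95% interval -0.17 to 0.46). Ppargc1a, which encodes the coactivator PGC-1alpha, had 4.82, 11.3, 5.45, 14.3 and 12.6 FPKM in KO 1 to 5, against 3.58, 7.59, 11.6, 3.36 and 2.46 FPKM in WT 1 to 5. KO 1, KO 2 and KO 3 lay within the WT range, and WT 2 and WT 3 within the KO range. Ppargc1a had the lowest mean level of the 34 genes and the largest difference, 0.80 (SE 0.43, limma adjusted p = 0.286), which was within its spread between libraries.

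Of the 5 genes of uptake, binding and activation, 2 rose in KO livers and 3 were not called. Cd36, the fatty acid translocase, had 139, 124, 119.6, 136 and 109 FPKM in KO 1 to 5, against 92.7, 69.0, 74.6, 94.8 and 89.4 FPKM in WT 1 to 5. Every KO library stood above every WT library, and the KO average was 149.3% of that in WT. The difference was 0.58 (SE 0.10, limma adjusted p = 0.0061). It was called with any 1 of the 10 libraries left out. The gene (ENSMUSG00000002944) lies on the minus strand at chr5:17781690-17888801 in mm10. Groups that did not overlap were found for 8.87% of all genes tested, and for 3 of these 34, with KO above WT for Cd36 and KO below WT for Acadm and Acat1.

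Cd36 is also made by macrophages, endothelium and adipocytes, and in whole liver more cells of a type cannot be told apart from more RNA per cell. Of 9 Kupffer cell markers, 4 (44.4%) fell in KO livers and none was called higher, against 8.54% called over all genes tested. They summed to between 167 and 241 FPKM in KO and between 243 and 285 FPKM in WT livers. Of the 9 differences, 8 were below 0 and 1 was above, that of Marco (0.75), which was not called. Of 9 sinusoidal endothelial markers none was called, and their sums ran from 145 to 166 FPKM in KO and from 152 to 158 FPKM in WT livers. The 6 adipocyte markers summed to between 0.16 and 3.34 FPKM in KO and between 0 and 1.95 FPKM in WT livers. Adipoq reached at most 0.36 FPKM in KO and 0.30 FPKM in WT livers, and Plin1 at most 0.39 FPKM in KO and 0.11 FPKM in WT livers. Of 8 stellate cell and fibroblast markers 1 fell, of the 4 cholangiocyte markers tested 1 fell, and of 6 lymphocyte and 3 neutrophil markers tested none was called. The part of these cells in the difference of Cd36 was not tested.

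Slc27a1, the fatty acid transport protein FATP1, had 33.2, 31.5, 28.8, 24.8 and 25.3 FPKM in KO 1 to 5, against 17.4, 25.9, 24.9, 16.8 and 18.6 FPKM in WT 1 to 5. KO 4 and KO 5 lay below WT 2, the highest WT library, so the groups overlapped. The difference was 0.48 (SE 0.13), and its limma adjusted p of 0.048 was just inside the threshold. The call was lost when any 1 of 8 libraries was left out, every one but WT 2 and WT 3, with adjusted p up to 0.108, and also when no filter on low values was used. In mm10 the gene lies on the plus strand at chr8:71568882-71587302.

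Slc27a2, the related protein FATP2 that also activates very long chain fatty acids, averaged 1366 ± 66 FPKM in KO and 1274 ± 93.8 FPKM in WT livers (SD, n = 5 each). Acsl1, a long chain acyl-CoA synthetase of the outer mitochondrial membrane, averaged 477 ± 20.4 FPKM in KO and 489 ± 43.1 FPKM in WT livers; KO 2, at 512 FPKM, stood apart from the other KO libraries at 461 to 475 FPKM. Neither was called, with differences of 0.10 for Slc27a2 and -0.03 for Acsl1. Fabp1, the cytosolic fatty acid binding protein of the liver, was the most abundant of the 34. It ran from 2140.2 to 2520.4 FPKM in KO livers, inside the range of 1795 to 3685 FPKM in WT livers, and its difference was -0.21 (SE 0.16, limma adjusted p = 0.472).

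**Figure D2:**
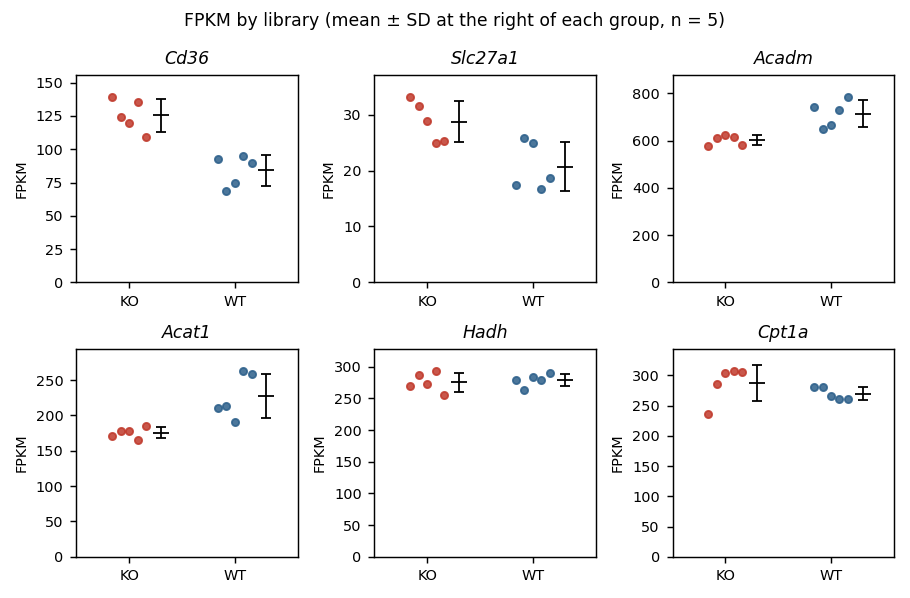
FPKM in each library (points) is drawn for the 4 called genes and for Hadh and Cpt1a, with KO libraries to the left of WT libraries, the mean ± SD of 5 libraries beside each group, and an axis that starts at 0. The groups are separate for Cd36, Acadm and Acat1, overlap narrowly for Slc27a1, and overlap fully for Hadh.

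None of the 3 genes of the carnitine shuttle was called. Slc25a20, the carnitine-acylcarnitine carrier of the inner membrane, had the smallest p of the 3. It had 108, 119, 127, 118 and 122 FPKM in KO 1 to 5 and 119, 119, 124, 133 and 134 FPKM in WT 1 to 5, a difference of -0.08 (SE 0.06, limma adjusted p = 0.435). Cpt1a, the rate-limiting carnitine palmitoyltransferase of the outer membrane, averaged 288 ± 29.9 FPKM in KO and 270.1 ± 10.6 FPKM in WT livers (SD, n = 5 each). KO 1 was the lowest Cpt1a library of all at 237 FPKM, and the other 4 KO libraries, at 286 to 307 FPKM, stood above every WT library. Its 95% interval ran from -0.07 to 0.24. Cpt2, which returns the fatty acid to coenzyme A on the matrix side, averaged 166 ± 14.4 FPKM in KO and 177 ± 22.2 FPKM in WT livers, with an interval from -0.29 to 0.11.

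Of the 8 acyl-CoA dehydrogenases, which take the first oxidation step for chains of different length, 1 fell and 7 were not called. Acadm, the medium chain enzyme and the most abundant of the 8, had 579, 609, 625, 617 and 582 FPKM in KO 1 to 5, against 740.1, 649, 667, 728 and 785 FPKM in WT 1 to 5. Every KO library was below every WT library, and the KO average was 84.4% of that in WT. The difference was -0.24 (SE 0.06, limma adjusted p = 0.028). The call was lost without KO 1, KO 2, KO 4, KO 5, WT 1, WT 4 or WT 5, with adjusted p up to 0.0684, while the difference stayed between -0.28 and -0.21. It was also lost under quantile normalization. Acadm (ENSMUSG00000062908) lies on the minus strand at chr3:153922357-153944632 in mm10, 23.285 Mb from Etnppl on the same chromosome.

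Acadl, the long chain enzyme, lay on the other side of 0, with 246 ± 10.7 FPKM in KO and 224 ± 21.2 FPKM in WT livers (SD, n = 5 each) and a difference of 0.14 (limma adjusted p = 0.237). KO 1, at 227 FPKM, stood apart from the other KO libraries at 247 to 253 FPKM. The ratio of Acadm to Acadl was 2.55, 2.42, 2.47, 2.47 and 2.36 in KO 1 to 5, against 3.21, 3.15, 3.38, 2.996 and 3.23 in WT 1 to 5. The ratio was lower in each KO library than in any WT library. This pair was looked at after the values were seen, so its ratio is given with no test. It was 1 of 4 ratios worked out. The groups overlapped for Hadhb to Hadha, Etfb to Etfa and Eci2 to Eci1.

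Acadsb, which acts on short branched chains from isoleucine, ran from 45.1 to 54.3 FPKM in KO and from 51.0 to 62.2 FPKM in WT livers. Its difference, -0.23, was close to that of Acadm, but its limma adjusted p was 0.094. Fgfr2, at 7.83 FPKM, overlaps Acadsb on the opposite strand. Very long chain Acadvl had a difference of -0.04, short chain Acads of -0.08, Acad9, also an assembly factor of respiratory complex I, of -0.13, Acad10 of 0.08 and Acad11 of 0.06. None of these 5 was called. Acads varied little among libraries, from 89.7 to 94.5 FPKM in KO and from 92.6 to 104 FPKM in WT livers.

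The 5 genes of hydration, second oxidation and thiolysis all had negative differences, though Hadha and Hadh turned positive under quantile normalization, and none was called. Acaa2, the mitochondrial 3-ketoacyl-CoA thiolase, came closest, with 544, 544, 479, 513 and 478 FPKM in KO 1 to 5, against 595, 540.1, 547, 616 and 696 FPKM in WT 1 to 5. KO 1 and KO 2 lay just above WT 2, so the groups overlapped by a narrow margin. The difference was -0.22 (SE 0.07, limma adjusted p = 0.086).

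Hadha and Hadhb encode the alpha and beta subunits of the mitochondrial trifunctional protein, which carries out the last 3 steps for long chains. Hadha averaged 233 ± 12.8 FPKM in KO and 238 ± 36.5 FPKM in WT livers, and Hadhb 246 ± 14.1 FPKM in KO and 263 ± 32.5 FPKM in WT livers (SD, n = 5 each). Their differences were -0.02 for Hadha and -0.09 for Hadhb. The ratio of Hadhb to Hadha was 1.05 ± 0.0317 in KO and 1.11 ± 0.0598 in WT livers, and ran from 1.01 to 1.09 in KO and from 1.01 to 1.17 in WT libraries. The genes stand head to head, Hadha on the minus and Hadhb on the plus strand, and the stretch between them is shown because it precedes both. It covers chr5:30155163-30155247 (GRCm38.p6, the assembly of mm10), 85 bases, on the plus strand, from the RefSeq promoter windows, with the motif GGGCGG in capitals.
Hadha and Hadhb: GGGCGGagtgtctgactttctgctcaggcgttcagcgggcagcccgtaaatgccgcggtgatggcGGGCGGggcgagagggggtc

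Hadh, the 3-hydroxyacyl-CoA dehydrogenase for short and medium chains, is the only 1 of the 34 within 10 Mb of Etnppl, at chr3:131233419-131272101 on the minus strand and 0.596 Mb away. It had 269.9, 287, 273, 293 and 255 FPKM in KO 1 to 5 and 279, 264, 284, 278 and 289.6 FPKM in WT 1 to 5. The groups overlapped fully, and the KO average was 98.8% of that in WT. The difference was -0.02 (95% interval -0.13 to 0.09, limma adjusted p = 0.861), so a change of more than 0.13 either way lies outside the interval. Echs1, the short chain enoyl-CoA hydratase, averaged 111 ± 7.47 FPKM in KO and 114 ± 7.96 FPKM in WT livers; Paox, at 5.38 FPKM, overlaps it on the opposite strand.

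The 3 enzymes that deal with double bonds had differences above 0, though that of Decr1 turned negative with library weights, and none was called. Eci2, an enoyl-CoA delta isomerase of mitochondria and peroxisomes, had 225, 222, 229, 229 and 228 FPKM in KO 1 to 5 and 199.9, 196, 210.3, 230.1 and 223 FPKM in WT 1 to 5. Its KO libraries lay close together, within the upper part of the WT range. The difference was 0.10 (SE 0.05, limma adjusted p = 0.271). Eci1, the mitochondrial isomerase, had a difference of 0.09, and Decr1, the 2,4-dienoyl-CoA reductase, of 0.01, with means of 103 FPKM in KO and 103 FPKM in WT livers.

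The electron transfer flavoproteins had narrow intervals around 0. Etfdh, which hands the electrons to ubiquinone, had 218, 231, 235, 233 and 232 FPKM in KO 1 to 5 and 243, 229, 228, 258 and 241 FPKM in WT 1 to 5, and its low value in KO 1 stood apart from the other KO libraries. The difference was -0.06 (SE 0.05, limma adjusted p = 0.48). Etfa and Etfb, the subunits of the soluble flavoprotein, averaged 220.1 ± 5.92 FPKM for Etfa and 470.1 ± 33.1 FPKM for Etfb in KO livers. In WT livers they averaged 213 ± 9.45 FPKM for Etfa and 475 ± 35.3 FPKM for Etfb (SD, n = 5 each). Both intervals lay between -0.16 and 0.14.

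Of the genes that make ketone bodies, Acat1 fell and Bdh1 was not called. Acat1, the mitochondrial acetoacetyl-CoA thiolase, which also serves isoleucine breakdown, had 171, 179, 177, 165 and 185 FPKM in KO 1 to 5, against 211, 213, 191, 263 and 258 FPKM in WT 1 to 5. Every KO library was below every WT library, though WT 3 was close to KO 5. The KO average was 77.2% of that in WT. The difference was -0.36 (SE 0.09, limma adjusted p = 0.026). The call was lost without KO 1, KO 2, KO 4 or WT 5, with adjusted p up to 0.0618, and with no filter on low values. In mm10 Acat1 (ENSMUSG00000032047) lies on the minus strand at chr9:53580522-53610382. Bdh1, the 3-hydroxybutyrate dehydrogenase that makes the last product, averaged 182 ± 13.8 FPKM in KO and 189 ± 27.8 FPKM in WT livers, with a 95% interval from -0.26 to 0.17.

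None of the 3 fasting targets of PPARA was called. Pdk4, the kinase that shuts off pyruvate dehydrogenase, had 8.46, 14.3, 19.2, 8.82 and 8.19 FPKM in KO 1 to 5, against 22.4, 8.45, 14.3, 32.8 and 18.1 FPKM in WT 1 to 5. KO 1, KO 4 and KO 5 were at the level of the lowest WT library, WT 2. The difference was -0.63 (SE 0.35, limma adjusted p = 0.304). Fgf21, a hormone the liver secretes in fasting, ran from 22.7 to 88.4 FPKM in KO and from 10.1 to 67.6 FPKM in WT livers, and its interval, -0.66 to 1.93, was the widest of the 34. Vnn1, a pantetheinase, averaged 133 ± 5.23 FPKM in KO and 123 ± 32 FPKM in WT livers (SD, n = 5 each), with WT 2 at 93.9 and WT 3 at 84.8 FPKM below every other library.

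**Figure D3:**
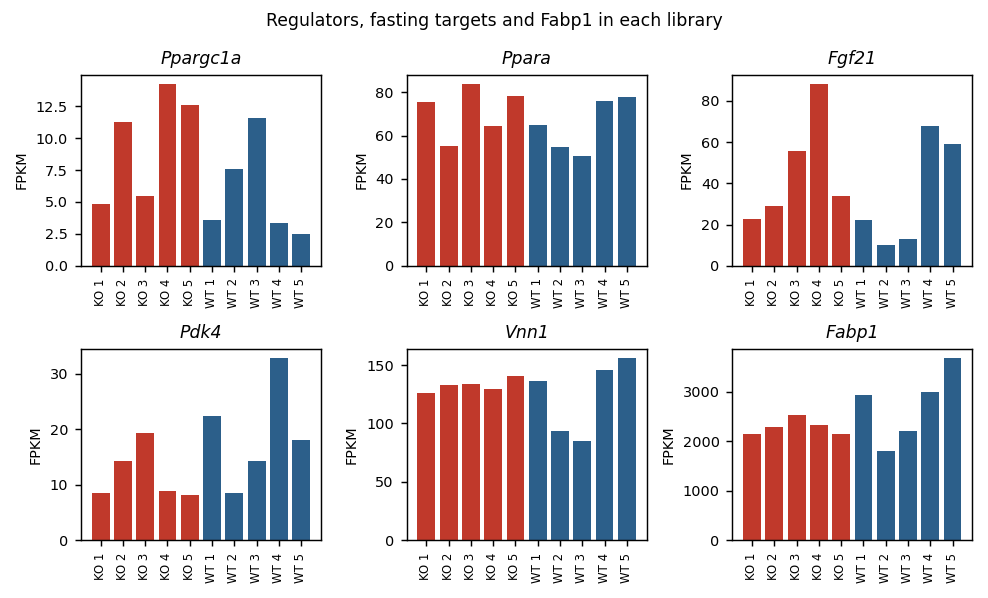
Bars give FPKM in each library, KO 1 to 5 to the left of WT 1 to 5, for the regulators Ppargc1a and Ppara, the fasting targets Fgf21, Pdk4 and Vnn1, and Fabp1. Fgf21, Vnn1 and Fabp1 were low in WT 2 and WT 3 relative to WT 4 and WT 5, and Vnn1 and Fabp1 were even across the KO libraries.

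The intervals differed in width between the 34 genes. The 95% interval of the difference lay wholly within 0.25 of 0 for 16 of the 34 genes (47.1%) and within 0.5 of 0 for 27 (79.4%), among them Acadm, which was called. Over all genes tested these shares were 22.9% for 0.25 and 73.7% for 0.5. The 34 genes had means from 7.70 FPKM for Ppargc1a to 2503 FPKM for Fabp1. All genes tested took in means down to 0.5 FPKM, so these shares were not matched for level.

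Most of the 34 genes had a smaller spread among KO than among WT livers. The SD of log2(FPKM + 0.5) was smaller in KO for 30 of the 34 genes (88.2%), with Cpt1a, Slc25a20, Acadsb and Hadh as the exceptions, and its median was 0.086 in KO and 0.143 in WT livers. Over all genes tested it was smaller in KO for 55.3%, and for 58.8% of the 5693 genes with a mean no lower than that of Ppargc1a. For Vnn1 the coefficient of variation was 3.94% in KO and 26% in WT livers, and for Fabp1 it was 6.77% in KO and 27.1% in WT livers. Genes that vary together are not separate evidence, and the difference in spread was not tested.

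**Figure D4:**
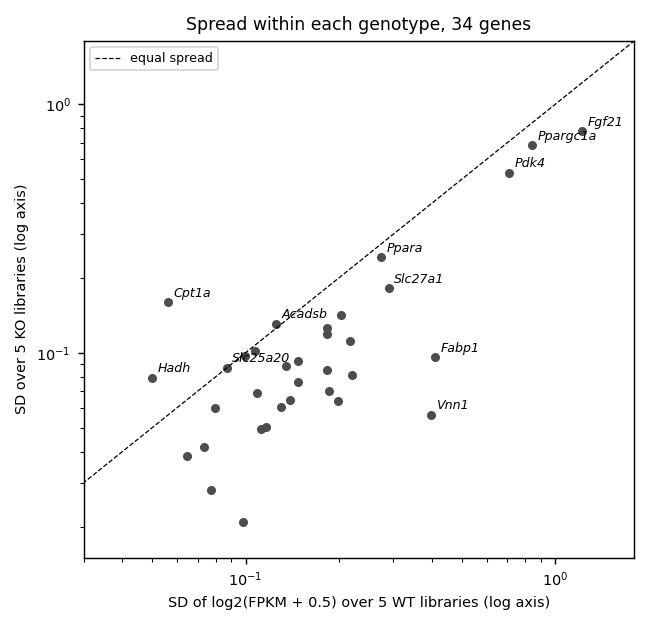
The SD of log2(FPKM + 0.5) over the 5 KO libraries (vertical axis) is plotted against that over the 5 WT libraries (horizontal axis), both on log axes, 1 point per gene, with a dashed line at equal spread. Of the 34 points, 30 lie below the line, and Vnn1 and Fabp1 lie far below it.

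The spread among WT livers followed a pattern that many of the 34 genes shared. WT 2 and WT 3 were the lowest WT libraries for 20 of the 34 genes (58.8%), against 17.9% of all genes tested, and the highest was WT 4 for 12 genes and WT 5 for 13. The median deviation from the WT mean, on the log2 scale, was -0.11 in WT 2, -0.13 in WT 3, 0.10 in WT 4 and 0.11 in WT 5, while over all genes tested it was within 0.03 of 0 in each of the 4. Among KO livers KO 1 was the lowest library for 17 of the 34 genes and KO 3 the highest for 13, with median deviations of -0.04 in KO 1 and 0.02 in KO 3. This pattern was picked out after the values were seen, and the labels give no batch, time of day or feeding state to set beside it. For Slc27a1, Ppargc1a, Acad10 and Echs1 the order was the other way, with WT 2 and WT 3 the highest WT libraries.

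**Figure D5:**
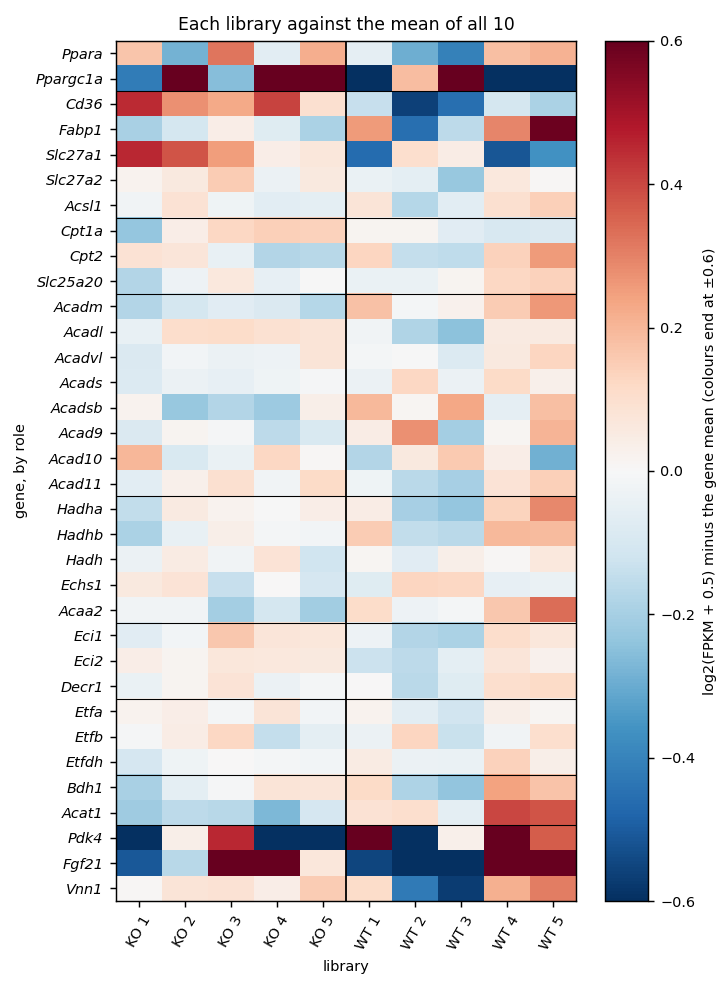
Each cell gives log2(FPKM + 0.5) in 1 library minus that gene's mean over all 10 libraries, with genes in rows by role, KO libraries to the left of WT libraries, and colours that end at 0.6 either way. WT 2 and WT 3 are blue and WT 4 and WT 5 red for many genes from Fabp1 to Vnn1. Cd36, Slc27a1, Acadm and Acat1 keep 1 sign across the KO columns, as do Eci2, Vnn1, Acads and Acaa2, which were not called.

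The promoters of Cd36, Acadm and Fabp1 are shown because the first and second were called, with opposite signs, and the third is the most abundant of the 34. PPARA binds AGGTCA repeated in the same orientation with 1 base between, or close variants. Among the 29 genes with a RefSeq promoter window (250 bases before to 50 after the start, GRCm38.p6), AGGTCA on either strand was found in 7 (24.1%), against 18.13% of 27025 genes. The exact repeat was in none of the 29 and in 0.05% of all genes. A looser repeat of AGGNCA, again with 1 base between, which includes every exact repeat and can overlap AGGTCA, was in Fabp1 alone of the 29 and in 0.45% of all genes. GGGCGG, a motif added after the sequences were seen, was in 22 of the 29 (75.9%) on either strand, against 38.2% of all genes. The 27025 genes were not filtered by level, while the 29 all passed the filter on low values, so these shares do not compare like with like. A match describes letters and not a bound site. Capitals mark AGGTCA, here read as TGACCT, and in Fabp1 the looser repeat, also on the opposite strand. The stretches are written in the direction of transcription and end before the first exon, at chr5:17835897-17836146 for Cd36 and chr3:153944644-153944893 for Acadm, both on the minus strand, and at chr6:71199629-71199826 for Fabp1 on the plus strand. That of Cd36 precedes the RefSeq start and lies inside the longer gene of the GENCODE annotation.
Cd36: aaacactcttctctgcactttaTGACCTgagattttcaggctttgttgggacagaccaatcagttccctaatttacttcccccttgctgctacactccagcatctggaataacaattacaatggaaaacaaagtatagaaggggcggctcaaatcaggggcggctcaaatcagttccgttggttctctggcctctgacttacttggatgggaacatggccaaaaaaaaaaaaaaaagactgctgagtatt
Acadm: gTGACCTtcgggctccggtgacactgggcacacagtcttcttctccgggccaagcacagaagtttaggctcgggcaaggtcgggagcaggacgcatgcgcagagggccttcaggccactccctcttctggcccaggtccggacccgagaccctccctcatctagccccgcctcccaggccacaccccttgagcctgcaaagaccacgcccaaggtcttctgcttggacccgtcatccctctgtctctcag
Fabp1: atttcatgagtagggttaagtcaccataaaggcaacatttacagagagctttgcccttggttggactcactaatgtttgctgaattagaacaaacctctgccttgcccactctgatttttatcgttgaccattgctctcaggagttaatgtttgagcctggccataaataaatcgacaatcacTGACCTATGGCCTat

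Other genes of the pathway were taken from a list of 44 tested genes of fatty acid oxidation and ketogenesis outside the 34. Of these, 2 were higher, 3 were lower and 39 were not called (11.4% called, against 8.54% of all genes tested), with a median difference of -0.04. Acad8, the isobutyryl-CoA dehydrogenase of valine breakdown, had 20.2, 19.0, 20.7, 21.2 and 19.4 FPKM in KO 1 to 5, against 29.9, 25.8, 25.8, 25.6 and 31.2 FPKM in WT 1 to 5. Its groups were separate, with a difference of -0.45 (SE 0.07, limma adjusted p = 0.0037). Also lower were Acsm5, a medium chain acyl-CoA synthetase, by a difference of -0.27, and Pccb, a subunit of propionyl-CoA carboxylase, of -0.17. Mcee, the methylmalonyl-CoA epimerase, and Echdc2, an enoyl-CoA hydratase domain protein, were higher by 0.31 each. With any 1 library left out Acad8 and Echdc2 were still called, but Echdc2 was not called with the replicate number as a block. Mcee (adjusted p = 0.038) was called only without WT 2 or WT 3, with limma adjusted p up to 0.087 otherwise, Acsm5 (adjusted p = 0.048) only without KO 4 or WT 3, up to 0.094, and Pccb (adjusted p = 0.049) only without KO 1, up to 0.108. None of these 3 was called with no filter on low values, and Acsm5 and Pccb were not called under any of the 3 scalings.

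Of 25 further target genes of PPARA that were tested, 3 rose, 4 fell and 18 were not called, with a median of 0.00. The share called was 28%, against 8.54% of all genes tested, in a list chosen with earlier results of these data known. Cidec, a lipid droplet protein, averaged 62.4 ± 16.7 FPKM in KO and 21.3 ± 10.6 FPKM in WT livers (difference 1.61, limma adjusted p = 0.014), and the peroxisomal oxidation enzyme Ehhadh (0.65) was also higher. Acot3, a peroxisomal acyl-CoA thioesterase, averaged 32.1 ± 5.36 FPKM in KO and 89.9 ± 26.6 FPKM in WT livers (difference -1.43, limma adjusted p = 0.0045). Retsat, a retinol saturase (-0.60), Slc25a42, a mitochondrial coenzyme A carrier (-0.45), and Ucp2, an inner membrane transporter (-0.42), also fell. Leaving out 1 library ended the call of Ehhadh for KO 3, KO 4 or KO 5 (limma adjusted p up to 0.0595), of Slc25a42 for KO 4, KO 5 or WT 5 (up to 0.0584), and of Ucp2 for all but KO 3, KO 4 and WT 3 (up to 0.0945), and Ehhadh and Ucp2 were not called with no filter on low values, while Cidec, Acot3 and Retsat stayed called. Among 24 regulators and partners of PPARA, 1 was called (4.17%) and the other 23 were not. Esrra, an orphan nuclear receptor that works with PGC-1alpha, was higher. It averaged 15.2 ± 1.25 FPKM in KO and 11.8 ± 1.02 FPKM in WT livers (SD, n = 5 each), a difference of 0.35. Esrra was not called with the replicate number as a block. Ppard, a receptor related to PPARA, had the next smallest p, with a difference of -0.36 (limma adjusted p = 0.059).

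Among 19 tested genes that answer to fasting or insulin, 4 rose and none fell (21.1% called, against 8.54% of all genes tested). Trib3, a pseudokinase that stress and fasting induce, averaged 10.2 ± 2.69 FPKM in KO and 4.17 ± 0.529 FPKM in WT livers (difference 1.16). Igfbp1, an insulin-like growth factor binding protein that insulin represses, averaged 785 ± 181 FPKM in KO and 361 ± 160.4 FPKM in WT livers (difference 1.19), and WT 4, at 635 FPKM, lay within the KO range. Elovl6, a fatty acid elongase (0.46), and Acaca, an acetyl-CoA carboxylase of fatty acid synthesis that insulin promotes (0.42), rose as well. Trib3, Igfbp1 and Elovl6 were called with any 1 library left out, but Acaca only without KO 4, WT 1 or WT 3, with limma adjusted p up to 0.0842 otherwise. Acaca was not called with no filter on low values, and neither Elovl6 nor Acaca with the replicate number as a block. In the peroxisome, which has a beta-oxidation route of its own, 3 of 21 genes rose and 4 fell. That made 33.3% called, against 8.54% of all genes tested. Both of these lists were also chosen with earlier results known, and neither share was tested. Ehhadh and Abcd3, a transporter of acyl-CoA into the peroxisome, were among those that rose. Those that fell were Hacl1, a lyase of alpha-oxidation (-0.52), Scp2, a thiolase and sterol carrier (-0.26), Abcd2, a transporter of very long chain acyl-CoA (-0.74), and Amacr, a racemase for branched acyl-CoA (-0.25). Abcd3 was called only without KO 1, WT 4 or WT 5 when 1 library was left out (limma adjusted p up to 0.0929 otherwise), and Amacr lost its call without KO 2, KO 4, KO 5 or WT 1 (up to 0.0722). Neither was called with no filter on low values. The difference between the peroxisomal share and the 11.8% of the 34 genes was not tested.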

How the data were processed

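Per the labels, poly-A RNA of snap frozen livers was sequenced in paired ends. The authors deposited FPKM per gene and library. The submitters' processing notes list the mm10 build and DESeq2, DESeq, RSEM, STAR and R 4.0.2, with no role for each. FPKM is relative to the library total, so abundant transcripts that rise lower the rest.

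The deposited values were transformed to log2(FPKM + 0.5), which understates changes of low genes. Tests used limma 3.58.1 in R 4.3.3, on genes averaging 0.5 FPKM or more over 10 libraries (trend and robust eBayes, genotype the only term, two-sided). Since FPKM are not counts, count models were not applied. Simulated data were used to test the fit. P-values set the difference between genotypes against the spread between samples. That spread may be technical, as the labels do not say whether each sample was 1 animal. No libraries were identical; Spearman correlations across genes were 0.977 to 0.988 within genotypes. Relative depth came from 54 of 12076 candidate genes, which were not limited to low levels, so the steps found may not be single fragments. A gene was kept only where its values lay within 0.15 of whole steps. The 99.8% of values within 0.15 therefore follows from the selection and is no check of the estimate. Positions are from GENCODE on GRCm38.

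Members and lists were chosen with earlier results of these data known. Values by library are given for called members, the member of smallest p in each role, and Hadh. Of other lists, called genes are named, up to 6 by p, or the 2 of smallest p; Ucp2 and Abcd3 are named beyond it, after their values were seen. Some genes that the rule gives are counted but not reported by name here. Alternatives were pseudocounts, filters, scalings, non-robust eBayes, library weights, a replicate block, a fold minimum and each library left out. Figures used matplotlib 3.10.9 in Python 3.11.15.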

Additional observations from a re-analysis of the deposited data

Results flagged for a closer look

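Each of the 34 genes and Etnppl was searched in each genotype for a library far from the other 4, which made 70 groups, and 3 were flagged where chance would flag 3.5. Acsl1 in KO 2, at 512 FPKM, lay above the other KO libraries at 461 to 475 FPKM. Acadl in KO 1, at 227 FPKM, lay below the other KO libraries at 247 to 253 FPKM. Etfdh in KO 1, at 218 FPKM, lay below the other KO libraries at 231 to 235 FPKM. None of these genes was called, with or without KO 1 or KO 2.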

How the results depend on the processing

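Cd36 was called under every scaling, filter and pseudocount tried and without any 1 library. Of the 34 genes, 2 were called higher and 2 lower. With no filter on low values these became 1 and 1, under quantile normalization 1 was lower, and with a minimum difference of 0.5 on the log2 scale 1 was higher and 0 were lower. Leaving out 1 library gave 1 to 2 higher and 0 to 2 lower. Of the 44 further pathway genes, 2 were higher and 3 lower; this became 1 and 1 with no filter, 1 lower under each of the 3 scalings, 0 and 0 with the minimum difference, and 1 to 3 higher and 1 to 4 lower without 1 library. Over all genes the counts of 488 higher and 558 lower became 294 and 370 with no filter, 132 and 199 with the minimum difference, and ranged from 258 to 454 higher (lowest without KO 5) and from 316 to 541 lower without 1 library.

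Deviations of same-numbered KO and WT libraries correlated at -0.21 to 0.21, which cannot settle whether the replicate numbers pair the samples. With the replicate number as a block, 230 genes were higher and 321 lower, 0 of the 34 were lower and further pathway genes numbered 1 and 1. Acadm and Acat1 lost their calls. So did Echdc2, Acsm5, Pccb, Ehhadh, Slc25a42, Ucp2, Esrra, Elovl6, Acaca, Abcd3 and Amacr of the other lists.

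Signs turned only for genes that were not called and lay near 0. Etfb had a difference of 0.00115 under median-of-ratios and 0.000623 under upper-quartile scaling. Under quantile normalization Acsl1 had 0.038, Acadvl 0.025, Hadha 0.034, Hadh 0.036, Etfb 0.040 and Etfdh 0.0078, and Decr1 had -0.0095 with library weights. Without 1 library the differences ran from -0.076 to 0.054 for Hadha, from -0.034 to 0.035 for Decr1, from -0.050 to 0.019 for Etfb, from -0.041 to 0.0097 for Hadh and from -0.11 to 0.011 for Bdh1. The cause of these shifts was not tested. A p that missed the threshold with 5 libraries a group does not show that levels did not differ.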
